A study of Mus musculus with 4 samples.

Results

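The genes described here are 10 immediate early and injury-response genes: Fos, Fosb, Fosl2, Jun, Junb, Jund, Egr1, Atf3, Arc and Nr4a1. They were chosen by name. A called m6A peak was counted for a gene where the deposited annotation gave that gene's symbol to it. By this rule all 10 genes had a peak in the CCI list and in the sham list, out of 13558 genes named in the 3 deposited tables. The genes held 21 of the 33556 peaks of the CCI list, 16 of the 34406 peaks of the sham list and 5 of the 4812 rows of the differential table.

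The tables came from methylated RNA immunoprecipitation sequencing (MeRIP-seq) of mouse spinal cord. The animals were C57BL/6J, between 6 and 8 weeks old and, by the study's methods, male. In MeRIP-seq, fragments of poly(A) RNA are pulled down with an antibody against N6-methyladenosine (m6A), the commonest internal modification of mRNA, and compared with the untreated input. One group had chronic constriction injury (CCI), a model of neuropathic pain in which the sciatic nerve is loosely tied with silk thread, and the other had the sham operation without the ligature. RNA was taken on day 7, and each condition had 1 IP and 1 input library. How many mice went into a library, and which segment or side of the cord, are not given in the sources used here.

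Immediate early genes are switched on within minutes of a stimulus, before new protein is made. In the spinal dorsal horn, FOS protein has long been used to mark neurons excited by painful input. Proteins of the FOS and JUN families pair through leucine zippers to form AP-1, which binds DNA as a dimer. ATF3 belongs to the same bZIP class and is a classical marker of axonal injury in sensory neurons. EGR1 is a zinc-finger factor, NR4A1 is an orphan nuclear receptor, and Arc is an effector of synaptic plasticity and not a transcription factor. Many of these mRNAs are short-lived, and m6A is known to be able to speed mRNA decay through reader proteins.

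The value attached to each peak was its fold enrichment, the ratio of IP over input that the authors' peak caller gave for the peak as a whole. It measures enrichment of methylated fragments and not the amount of mRNA. With 1 library pair per condition no difference between CCI and sham could be tested, so ratios between the lists are given as descriptions, beside the same quantity over all peaks. Read counts were not among the files, and the depth behind each value is unknown. In bulk tissue, fewer cells of a type and less RNA per cell cannot be told apart. The enrichment of a peak also depends on where its borders were drawn, which the caller did separately in each list.

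The tissue label was checked by peaks on defining marker genes. All 6 neuronal, 5 astrocyte, 5 oligodendrocyte, 5 microglial and 3 blood markers had a peak in both lists, and none of 5 skeletal muscle markers did. Of 6 markers of dorsal root ganglion and Schwann cells, 3 had a peak in the CCI list and 5 in the sham list. Scn10a, a sodium channel of nociceptive sensory neurons, had peaks at 8.13-fold and 2.79-fold enrichment in the sham list and none in the CCI list. Mrgprd, a receptor of the same class of neurons, had a peak at 19.8-fold in the sham list and none in the CCI list. Prph and Sox10 had peaks in both lists and Pmp22 in neither. Prph and Sox10 are also expressed within the cord, in motor neurons and oligodendrocytes. The part of these markers in the values below was not tested.

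Presence of a peak did not set the 10 genes apart, because 86.8% of the 13554 genes with a peak in either list had one in both. The median member had 2 peaks in each list, and so did the median gene. Member peaks had a median enrichment of 8.06-fold in the CCI list, where the median of all peaks was 5.72-fold. In the sham list the medians were 12.5-fold and 5.70-fold. Enrichment lay above the list's median in 12 of 21 member peaks with CCI and in 12 of 16 with sham. Member peaks were also longer, with a median of 301 bp of exonic sequence in the CCI list and 432 bp in the sham list, against 211 and 239 bp over all peaks. The exonic length summed over the members was 8617 bp with CCI and 8253 bp with sham.

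**Figure D1:**
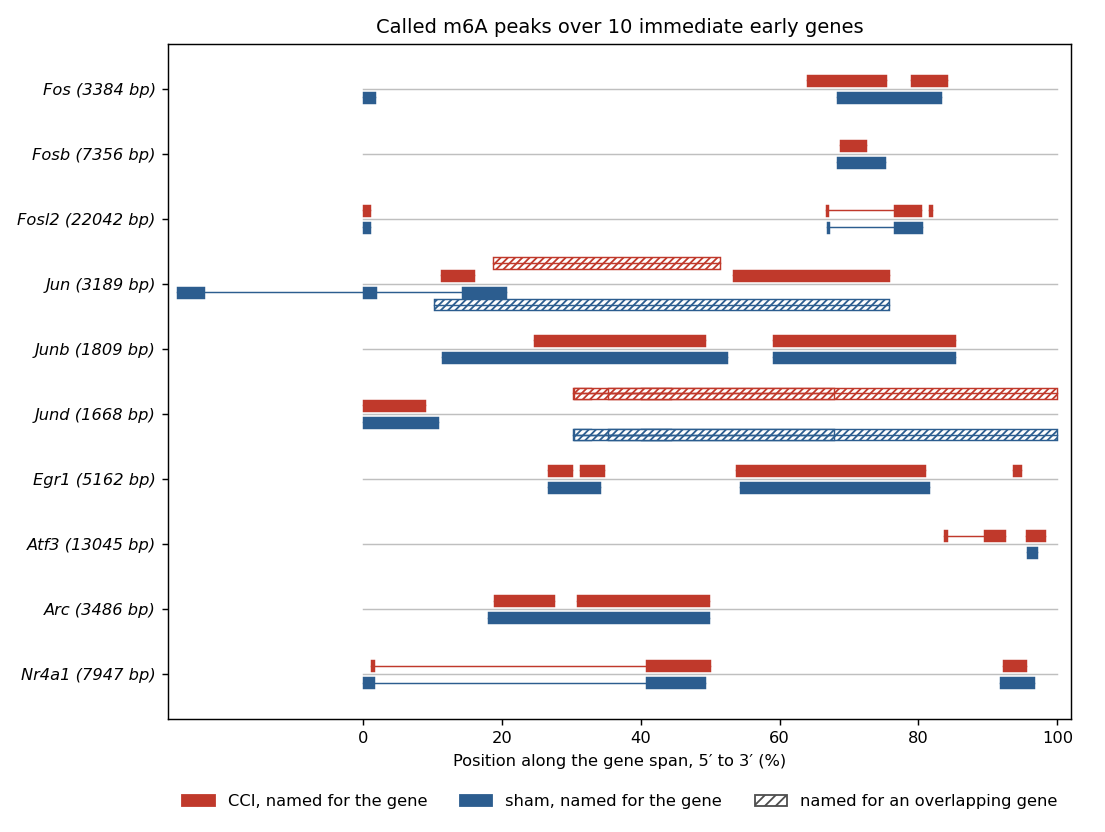
Called m6A peaks over the 10 genes, drawn as a percentage of each gene's span from its 5′ end, with CCI above the line and sham below it. Bars are exonic blocks, thin lines join blocks of 1 peak, and hatched bars are peaks over the same bases that carry the name of an overlapping gene. The large peaks lie at like positions in both conditions, while over Arc, Fos and the 5′-UTR of Egr1 the CCI list has a pair of peaks where sham has 1, and the 3′ peak of Jun is named for Jun in CCI alone.

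Along the transcripts, 12 of the 21 CCI peaks were annotated to the 3′-UTR (57.1%, 95% Wilson interval 36.5 to 75.5), 3 to coding exons and 6 to the 5′-UTR (28.6%, 13.8 to 50.0). In the sham list the numbers were 8 of 16 for the 3′-UTR (50.0%, 28.0 to 72.0), 0 for coding exons (upper bound 19.4%) and 8 for the 5′-UTR (50.0%, 28.0 to 72.0). Over all peaks the 3′-UTR share was 49.8% with CCI and 48.9% with sham, the 5′-UTR share was 14.7% with CCI and 16.1% with sham, and the exon share was 35.5% and 35.1%. The intervals cover counting error only, and peaks of 1 gene are not independent. The member counts leave out peaks over Jun and Jund that were named for an overlapping gene. Over Jund these included peaks annotated to Jund's own exon, at 138-fold and 3.20-fold with CCI and 49.6-fold and 3.37-fold with sham. The sham count of 0 for exons therefore holds by name and not by position. A 3′-UTR peak over Jund in each list and the 2086-bp sham peak over Jun were left out too. By gene, 5 members had a 5′-UTR peak with CCI and 7 with sham, against 31.3% and 33.6% of all genes. A label could change with a border alone: of the 14 matched peaks described below, 2 carried different region labels in the lists, those of Fos and Junb.

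To compare enrichment, a CCI peak and a sham peak were matched when each was the other's best partner, whatever the gene names, by the share of their combined exonic bases (the union) that both covered. This gave 27380 matched peaks over the transcriptome and 14 in the members, at least 1 for every gene. Of the 14, 7 had a lower ratio of CCI over sham and 7 a higher one. The median log2 ratio was -0.14, beside 0.03 over all matched peaks, whose quartiles were -0.37 and 0.43. Of the 14, 6 lay between these quartiles. Past a log2 ratio of 1 in size there was 1 peak lower with CCI, in the 5′-UTR of Fosl2, and 1 higher, in the 5′-UTR of Nr4a1, and the shares over all matched peaks were 7.25% lower and 8.59% higher. Past 1.5-fold there were 4 lower and 2 higher, beside 16.4% and 18.8% of all matched peaks.

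**Figure D2:**
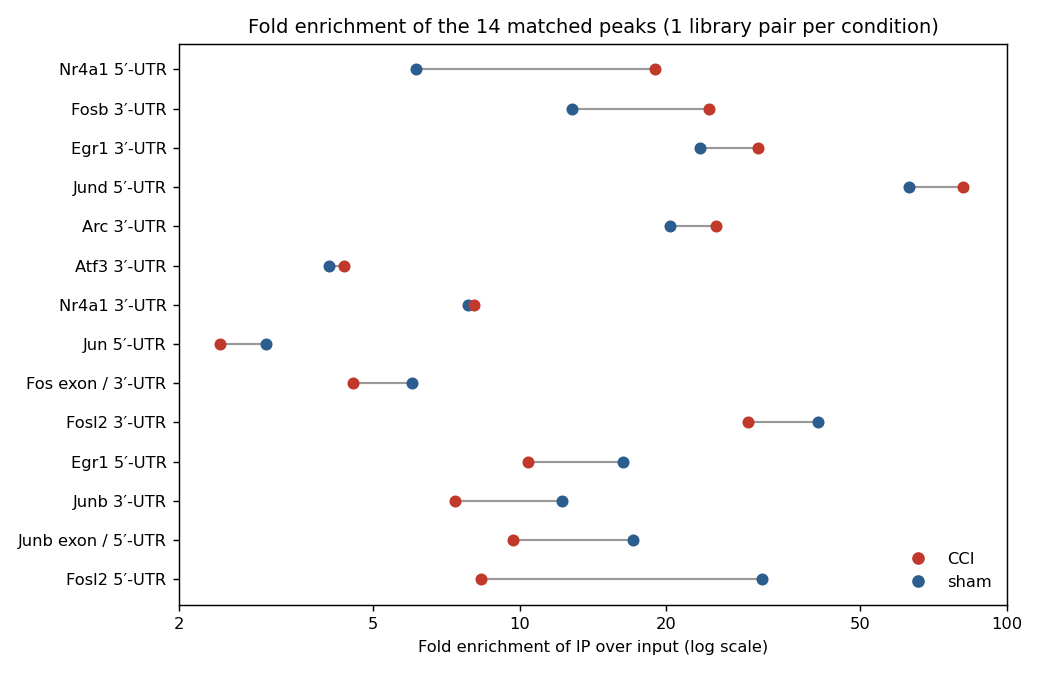
Fold enrichment of IP over input (log scale) of the 14 matched peaks, with a red point for CCI and a blue point for sham, ordered by their ratio. The 5′-UTR peaks of Fosl2 (8.34 and 31.4) and Nr4a1 (19.0 and 6.14) lie farthest apart in opposite directions, and both Junb peaks are lower with CCI. Where a peak has different region labels, that of CCI is given first.

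Fos (ENSMUSG00000021250, chr12:85473890-85477273, plus strand, GRCm38) encodes the FOS subunit of AP-1. The CCI list had peaks at 4.54-fold enrichment at chr12:85476053-85476440, in the last exon, and at 4.42-fold at chr12:85476559-85476737, in the 3′-UTR. The sham list had a single peak of 6.01-fold across the same stretch, at chr12:85476202-85476708. The first CCI peak was its match, with a log2 ratio of -0.40. Both lists therefore placed the methylation of Fos at the end of the coding sequence and the start of the 3′-UTR, at an enrichment close to the median of all peaks. The sham list alone had a 61-bp peak at the transcript start, at 3.56-fold enrichment.

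Fosb (ENSMUSG00000003545, chr7:19302696-19310051, minus strand) encodes the FOSB subunit, whose stable splice form ΔFOSB accumulates on repeated stimulation. It had 1 peak in each list, in the 3′-UTR. Enrichment was 24.5-fold with CCI over 270 bp and 12.8-fold with sham over 509 bp. The log2 ratio of 0.94 was at the 90.3 percentile of all matched peaks, the second highest of the 14. The sham peak was 1.89 times as long as the CCI peak that it contained.

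Fosl2 (ENSMUSG00000029135, chr5:32135801-32157842, plus strand) encodes FRA-2, a FOS-family subunit without the strong activation domain of FOS. Its 5′-UTR peak had the same borders in both lists, chr5:32135801-32136011. Enrichment there was 8.34-fold with CCI and 31.4-fold with sham, a log2 ratio of -1.91, at the 1.42 percentile of all matched peaks. Border placement does not enter this ratio. Among the 5237 matched peaks with identical borders the median log2 ratio was 0.07 and the quartiles were -0.24 and 0.40. The caller's log10 p of IP over input was -4.36 with CCI and -8.50 with sham, so both calls were weak beside the gene's 3′ peak. The 3′ peak joined a short block to a long 3′-UTR block, 900 bp in all, with 29.4-fold enrichment with CCI and 41.0-fold with sham (log2 ratio -0.48). A further 91-bp peak in the 3′-UTR was called with CCI only, at 5.56-fold.

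Within the FOS family the matched peaks of Fos and Fosl2 had lower enrichment with CCI and that of Fosb had higher enrichment.

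Jun (ENSMUSG00000052684, chr4:95049034-95052222, minus strand) is an intronless gene for the JUN subunit of AP-1 and is induced in neurons by axonal injury. Under its own name the CCI list held a 716-bp peak at chr4:95049809-95050524, in the 3′-UTR by annotation, with 181-fold enrichment, at the 99.4 percentile of that list. It also held a 150-bp 5′-UTR peak at 2.43-fold. The sham list held under the name Jun a 61-bp peak at the transcript start at 5.23-fold and a peak of 329 bp at 3.01-fold. The second of these had 2 blocks, and the block of 127 bp lay 729 bp beyond the annotated start of Jun. It was matched with the 150-bp CCI peak (log2 ratio -0.31) on 51 bp, or 11.9% of their union. Read by name alone, Jun's strongest peak was thus 181-fold with CCI and 5.23-fold with sham, a log2 ratio of 5.11.

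This gap came from the gene name. The sham list had a peak at chr4:95049809-95051894 with 365-fold enrichment over the same bases, and the annotation named it Junos (ENSMUSG00000087366), a gene on the opposite strand that starts within Jun. All 2086 bp of that peak lay inside the span of Jun, and 361 bp of them lay inside Junos. The CCI peak of 716 bp lay wholly within it. Taken by position, the strongest enrichment over Jun was 181-fold with CCI and 365-fold with sham, a log2 ratio of -1.01. The direction was the reverse of that by name. The CCI list had a Junos peak of its own over the middle of Jun, 1044 bp at 3.65-fold, and this was the reciprocal match of the 365-fold sham peak, with a log2 ratio of -6.64. The sham signal was called as 1 long peak and the CCI signal as 3 separate ones, so neither ratio compares equal bases, and the sham peak was 2.91 times as long as the 716-bp CCI peak. The 150-bp CCI peak at 2.43-fold also lay wholly inside the 365-fold sham peak, which was no match for it because those bases were 7.19% of their union. Whether the caller used strand is not stated, and reads of Jun and Junos cannot be told apart here.

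Junb (ENSMUSG00000052837, chr8:84976910-84978718, minus strand) encodes JUNB, which is a weaker activator than JUN on many AP-1 sites. Its 3′-UTR peak had the same borders in both lists, chr8:84977177-84977651, with 7.37-fold enrichment with CCI and 12.2-fold with sham (log2 ratio -0.73, the 12.4 percentile). Its upstream peak was 445 bp and 9.68-fold with CCI and 742 bp and 17.1-fold with sham (log2 ratio -0.82, the 10.3 percentile). Junb was thus lower with CCI at both of its sites, including the one where the borders were equal.

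Jund (ENSMUSG00000071076, chr8:70698949-70700616, plus strand) encodes JUND, the JUN protein that is present in most cells without stimulation. Its 5′-UTR peak was the most enriched of the 14 matched peaks, 81.3-fold with CCI over 150 bp and 63.1-fold with sham over 180 bp (log2 ratio 0.37). The body and 3′ end of Jund were covered by 3 further peaks in each list, all named for Gm11175 (ENSMUSG00000080058), a gene of the opposite strand at chr8:70699162-70699689. The longest, chr8:70699455-70700616, reached the 3′ end of Jund, and 235 of its 1162 bp lay in Gm11175. It had 154-fold enrichment with CCI and 180-fold with sham, a log2 ratio of -0.23. A shorter one inside it, chr8:70699538-70700080, had 138-fold with CCI and 49.6-fold with sham, a log2 ratio of 1.48. The shorter peak's bases thus carried ratios of opposite sign in nested peaks with identical borders in both lists. The smallest, 117 bp in 2 blocks, was at 3.20-fold and 3.37-fold. By name Jund's strongest peak was higher with CCI, and by position it was lower.

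**Figure D3:**
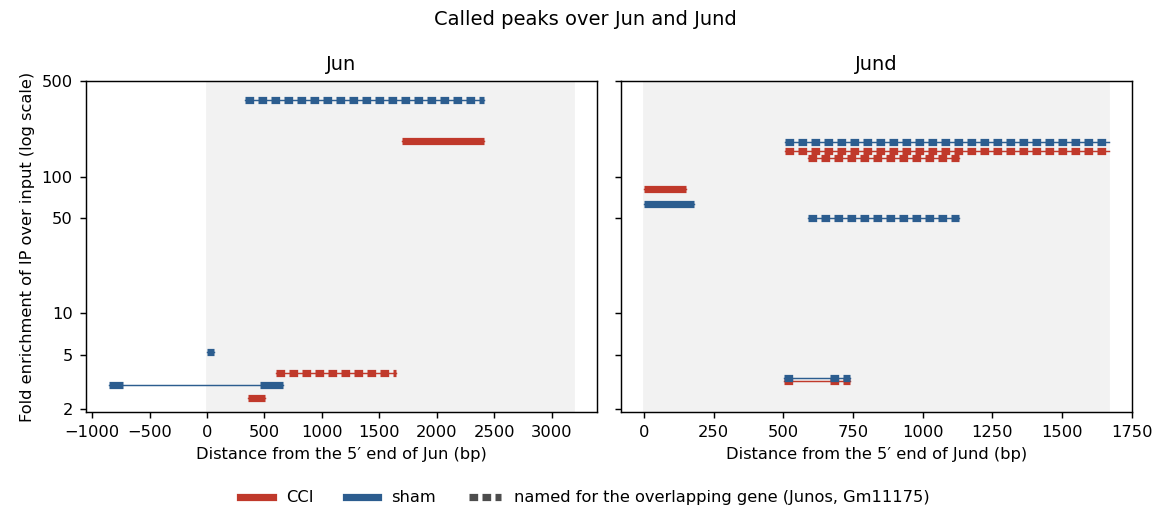
Fold enrichment (log scale) of every called peak over Jun and Jund against distance from the gene's 5′ end in bp, with CCI in red and sham in blue. Broken bars are peaks named for the overlapping genes Junos and Gm11175, and the shaded band is the gene's span. Over Jun the 181-fold CCI peak lies beneath the 365-fold sham peak that carries the other name, and over Jund the long peaks (154 and 180) nearly coincide while the nested ones (138 and 49.6) do not.

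Egr1 (ENSMUSG00000038418, chromosome 18, plus strand) encodes a zinc-finger factor induced by growth factors and synaptic activity. Its 3′ peak was 1406 bp long in both lists, the longest member peak matched, and was shifted by a small step. Enrichment was 30.8-fold with CCI and 23.4-fold with sham (log2 ratio 0.40). In the 5′-UTR the CCI list had 2 peaks of 180 bp, at 10.4-fold and 2.62-fold, where sham had 1 of 389 bp at 16.3-fold. The log2 ratio of the matched pair was -0.65, the 14.5 percentile. The 5′-UTR and 3′ matched peaks of Egr1 therefore differed in sign. A 61-bp peak near the 3′ end was called with CCI only, at 3.58-fold.

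Nr4a1 (ENSMUSG00000023034, chr15:101266846-101274792, plus strand) encodes NUR77, a nuclear receptor induced by neuronal activity. Its 5′ peak joined the first exon to a downstream exon block. Enrichment was 19.0-fold with CCI over 776 bp and 6.14-fold with sham over 805 bp, a 3.09-fold difference (log2 ratio 1.63, the 97.0 percentile). The lists shared 82.8% of its bases, and the caller's log10 p was about equal, -119 with CCI and -118 with sham. Its 3′-UTR peak was at 8.06-fold with CCI and 7.85-fold with sham (log2 ratio 0.04). The libraries thus differed at the 5′ end of Nr4a1 and gave nearly equal values at its 3′ end.

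Atf3 (ENSMUSG00000026628, chr1:191170296-191183340, minus strand) encodes the stress-induced bZIP factor ATF3, and its strongest peak had the lowest enrichment of any member with CCI and with sham. Its 3′-UTR peak was 360 bp at 4.37-fold with CCI and 180 bp at 4.07-fold with sham, a log2 ratio of 0.10. The CCI list alone had a further peak of 449 bp in 2 blocks, chr1:191171283-191172426, at 2.98-fold. The called exonic length over Atf3 was 809 bp with CCI and 180 bp with sham. Scn10a and Mrgprd, markers of the sensory neurons in which ATF3 is a classical injury gene, had peaks with sham and none with CCI.

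Arc (ENSMUSG00000022602, chr15:74669083-74672568, minus strand) encodes a capsid-forming protein that acts at dendritic spines and whose mRNA travels into dendrites. The CCI list had a 660-bp peak at 25.3-fold and a 301-bp peak at 4.63-fold, where the sham list had 1 peak of 1110 bp at 20.4-fold. The matched pair had a log2 ratio of 0.31. The sham peak contained both CCI peaks.

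Besides the matched peaks and the split ones, 3 member peaks of the CCI list shared no base with any sham peak (Atf3, Egr1 and Fosl2, at 2.98, 3.58 and 5.56-fold). All 3 lay in the 3′-UTR. Over the whole CCI list 12.3% of peaks shared no base with a sham peak. In the sham list 2 member peaks shared no base with a CCI peak, those at the starts of Fos and Jun, and over the whole list the share was 16.1%.

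The starts of Fos and Jun, with that of Nr4a1, are shown by sequence because a called peak covered them in the sham list and in no case in the CCI list. They were picked for that difference. Fosl2 and Jund had peaks at the annotated gene start in both lists. These were 8.34-fold with CCI and 31.4-fold with sham for Fosl2, and 81.3-fold and 63.1-fold for Jund. The RefSeq starts of Fosl2 and Jund lie elsewhere, and no peak covered those windows. No window was read for Egr1 or Arc. Each line gives the first 30 bases of the RefSeq transcript start on GRCm38.p6, 5′ to 3′, and capitals mark GGAC, a core of the m6A consensus.
Fos, chr12:85473890-85473919, plus strand: aaccgcgactgcagcgagcaactgagaaga
Jun, chr4:95052193-95052222, minus strand: gttgagctcaggctggataaGGACtcagag
Nr4a1, chr15:101266846-101266875, plus strand: gagccccagtgcaggaggctgcgaaagttg
GGAC, searched on the transcribed strand, was present in the window of Jun and not in those of Fos and Nr4a1, and 11.2% of 32851 RefSeq windows of this length held it. A match is a description of the letters and not a methylated site. The antibody is also known to bind m6Am, the modified nucleotide next to the cap. The Nr4a1 window belongs to the 5′ peak described above, which began 89 bp farther downstream with CCI than with sham.

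The differential table of the study named 5 of the 10 members: Egr1, Jun, Junb, Jund and Nr4a1, with 1 row each. Over all genes with a peak in either list 25.3% had a row there. Of the 5 rows, 4 were annotated to the 5′-UTR (95% Wilson interval 37.6% to 96.4%), against 15.3% of all rows of that table. The fifth was the 3′ peak of Egr1. At these places the log2 ratios of the matched peaks were 1.63 for Nr4a1, 0.40 for Egr1, 0.37 for Jund, -0.31 for Jun and -0.82 for Junb. The value for Jun rests on the 51 bp described above. The 5′-UTR peak of Fosl2, with the largest ratio in size of the 14 matched peaks named for a member, had no row. Rows over the same loci under other names were the 2086-bp Junos peak and 2 Gm11175 peaks. The study's fold changes and tests of these rows were not used.

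Other genes of the same pathway were read at their strongest matched peak that carried the gene's name in both lists. For the 10 members this gave a ratio below 0 in 4 and above 0 in 6, with a median log2 ratio of 0.21. Over all 11543 genes with such a peak the median was 0.02, and 48.7% were below 0. Past a log2 ratio of 1 in size, 0 members were lower and 1, Nr4a1, was higher with CCI, and over all genes 11.4% were lower and 12.8% higher. The member counts depend on the gene name. Jun enters at -0.31, from the matched peak that shared 11.9% of its union. With the strongest peak of each list taken by position, Jun was at -1.01 and Jund at -0.23. By that measure 5 members were lower with CCI and 5 higher.

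Among 18 other AP-1 and bZIP partners, 12 had a matched peak, of which 3 were lower and 3 higher past a log2 ratio of 1, with a median of -0.13. Over all genes 11.4% were lower and 12.8% higher past that size, and these shares apply to the next 2 lists as well. Atf2, Atf7 and Batf had no peak in either list, and 3 of the 18 had a row in the differential table. The stress-response factor Atf5 went from 59.3-fold with sham to 252-fold with CCI (log2 ratio 2.09). Mafg, a small MAF partner of bZIP factors, went from 22.5-fold to 90.2-fold (2.00). Atf4, the effector of the integrated stress response, went from 67.4-fold to 29.5-fold (-1.19).

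Among 28 other immediate early and activity-induced genes, 25 had a matched peak, of which 5 were lower and 2 higher past that size, with a median of 0.08. Maff (-1.15) belongs to this list and to the one before, and is counted as lower in both. Ptgs2 and Rheb had no peak, and 5 of the 28 had a differential row. Gadd45b, a growth-arrest and DNA-damage gene, had 42.2-fold enrichment with CCI and 9.65-fold with sham (2.13). Ier5 had 14.6-fold and 56.2-fold (-1.94), and Rgs2, an inhibitor of G-protein signalling, 10.1-fold and 27.0-fold (-1.42). The zinc-finger factor Klf4 was at 29.1-fold with sham and lower with CCI, at a log2 ratio of -1.28.

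All 18 upstream regulators of immediate early transcription had a matched peak, of which 3 were lower and 0 higher past that size, with a median of -0.16 and 5 differential rows. Over all genes 11.4% were lower and 12.8% higher, and 25.3% of genes with a peak in either list had a differential row. The 3 lower genes were Elk3 at 5.56-fold with CCI and 66.2-fold with sham (-3.57), Ep300 at 20.3-fold and 123-fold (-2.60) and Elk4 at 8.98-fold and 19.4-fold (-1.11). ELK3 and ELK4 are ternary complex factors that act with SRF on the promoters of genes such as Fos, and EP300 is a histone acetyltransferase. Its paralog Crebbp went the other way, with 69.8-fold and 36.6-fold (0.93). The genes named from these lists were picked for the size of their ratios. Their matched peaks shared from 62.9% of the union (Elk3) to 100% (Atf5 and Crebbp), so the Elk3 ratio does not compare equal bases.

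**Figure D4:**
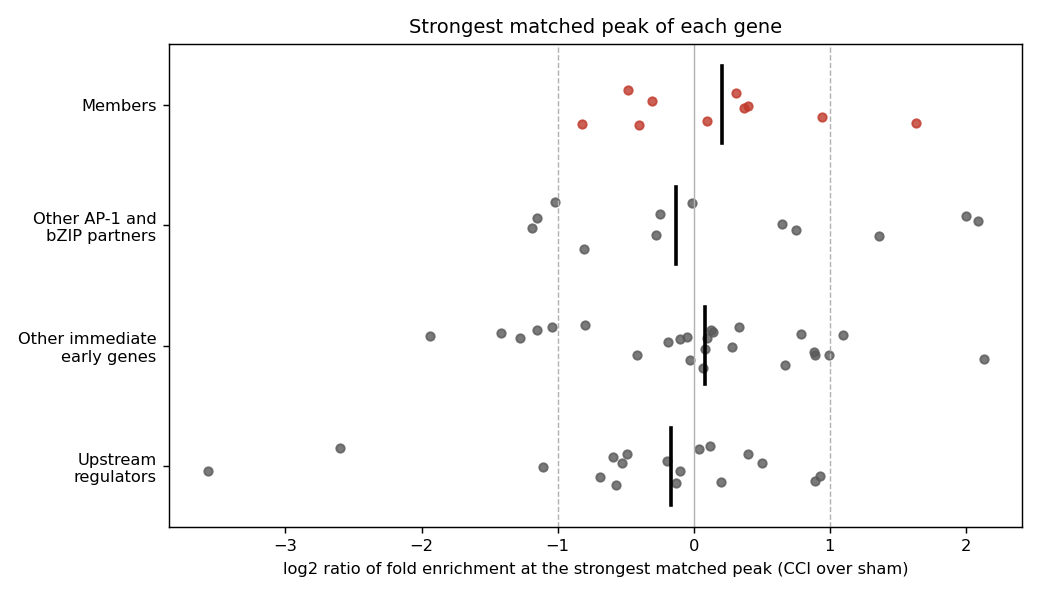
log2 ratio of fold enrichment, CCI over sham, at the strongest matched peak of each gene, for the 10 members and 3 lists of related genes. Each point is a gene, black bars are medians (0.21, -0.13, 0.08 and -0.16 from top to bottom), dashed lines mark a log2 ratio of 1 in either direction, and vertical scatter carries no value. Nr4a1 is the only member beyond the dashed lines, and the lowest points are Elk3 and Ep300. Peaks named for an overlapping gene are left out, so Jun is drawn at -0.31, while its strongest peaks by position gave -1.01.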

How the data were processed

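The labels' processing notes name fastp, HISAT2, HOMER, ChIPseeker and GRCm38, and the study's methods name Cutadapt, bowtie, MACS2 and ChIPseeker. The deposited columns are laid out as in exomePeak output, so which caller made them is unsure. Libraries were made with dUTP, and use of strand in calling is not stated. Each deposited fold enrichment is a ratio of IP over input. The log10 p and log10 false discovery rate columns, treated as a score, were computed by the authors. The study's own CCI against sham columns (log2 fold change, p and false discovery rate) were not used.

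Peaks were matched as reciprocal best partners by shared exonic bases over the union of both peaks (minimum 1 bp), regardless of gene name, with Python 3.11.15, pandas 2.3.3 and numpy 2.4.6. The matching was tested on simulated peaks that were single-block, far apart and slightly shifted. Matching of split, nested or joined peaks, as over Jun and Jund, was not tested. A matched peak was counted as past the threshold at a log2 ratio of 1 in size. Wilson intervals were at 95%. Strongest peaks were the highest fold enrichment per gene. All 10 members were described, and of each of 3 related lists up to 4 genes with the largest ratio were named. Some genes are not reported here. The members and lists were chosen with earlier results of these data known. Start sequences are RefSeq's on GRCm38.p6.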

Additional observations from a re-analysis of the deposited data

How the results depend on the processing

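No paired analysis was possible because each condition had 1 IP and 1 input library. Depth is unknown, and no leaving out of a library could be done. Of 62 recomputed values, 50 kept to their reported value within the tolerance set (1.5 times for counts, 0.1 for log2 ratios, the Wilson interval for shares). A gene's log2 ratio of 1 or more in size counted as kept if it stayed past 1 with the same sign. Many of the 62 could not move, so the 50 are no measure of robustness. The median subtracted from the strongest-peak ratios was 0.0, and position changed nothing for members other than Jun and Jund. Requiring a false discovery rate below 0.01 or a fold enrichment of 2 removed no member peak. At 1.5-fold the matched peaks past the threshold became 4 lower and 2 higher. With every peak over the member loci, whatever its gene name, they were 2 lower and 2 higher. That setting, and the one requiring 80% of the union to be shared, were chosen after seeing the data. The median log2 ratio of -0.14 turned to 0.10 when matched peaks had to share 50% of both, which left 11, and was -0.01 with 1 value per gene. It therefore has no stable sign. By position and not by name, the strongest peak of Jun reversed from 5.11 to -1.01 and that of Jund moved from 0.37 to -0.23. With the length-weighted mean of all its peaks in place of the strongest, Arc moved from 0.31 to -0.12, Atf3 from 0.10 to -0.18, Egr1 from 0.40 to 0.20 and Fosl2 from -0.48 to -0.71.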
